A study of Arabidopsis thaliana with 6 samples.

Results

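Wild-type Col-0 seedlings of Arabidopsis thaliana grown in red light were set directly against dark-grown seedlings of the pifQ mutant, gene by gene. The comparison takes in all 6 arrays of the series, 3 for red light Col-0 and 3 for dark pifQ, chosen by their titles, and covers 7234 genes. Red light Col-0 seedlings had no mutated PIF gene and spent 60 h in red light of 24 μmol m-2 s-1 that was never switched off. Dark pifQ seedlings carried mutations in 4 genes, PIF3, PIF4, PIF1 (also called PIL5) and PIF5 (PIL6), and spent the same 60 h in darkness. All seedlings had first been chilled in the dark for 3 days at 4 °C on medium with 1% sucrose and then exposed for 6 h to white light (100 μmol m-2 s-1). Whole seedlings were extracted, and each replicate came from plants raised and collected separately, per the labels. On each array the sample was labelled with Cy5 and dark-grown Col-0 with Cy3, so every level below is a log2 ratio over dark Col-0, and every difference is red light Col-0 minus dark pifQ on that scale. The groups differ in light and in genotype at once, and the comparison does not separate the effect of either.

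PIFs are bHLH transcription factors that accumulate in darkness, promote elongation of the hypocotyl and hold back greening. Phytochromes, the red light receptors, bind PIFs once activated by light and lead to their breakdown, so that light and PIF loss are known to move many of the same seedling genes. Light also acts through other routes, among them the stabilisation of transcription activators, photosynthesis itself and the entrainment of the circadian clock.

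None of the 4 mutated PIF genes is among the genes measured, so the mutant was not checked by its own transcripts. The red light arrays resembled each other across genes at r = 0.81 to 0.91, and the pifQ arrays at 0.42 to 0.62. The pifQ replicate 3 stood apart, with r = 0.51 and 0.42 to pifQ replicates 1 and 2, and 0.70, 0.59 and 0.60 to red light replicates 1, 2 and 3. The median SD of a gene over 3 arrays was 0.17 in red light Col-0 against 0.24 in dark pifQ. Without pifQ replicate 3 the counts of genes called were 364 higher and 199 lower. Without red light replicate 1 they were 45 and 16, and no other array left out gave fewer.

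Of 7234 genes, 243 (3.36%) passed an adjusted p of 0.05 in limma with Benjamini-Hochberg adjustment, 159 higher in red light Col-0 (2.2%) and 84 lower (1.16%). Genes at least 2-fold higher made up 1.58% of all genes tested, and genes at least 2-fold lower 0.691% (50 genes). After quantile normalization 62 were higher and 20 lower, so that 75.6% of calls were higher in red light, against 65.4% here. Genes higher in red light Col-0 had a median ratio over dark Col-0 of 1.36 in red light Col-0 against 0.08 in dark pifQ. For 73 of the 159 the mean in dark pifQ lay within 0.3 of dark Col-0, for 52 it lay above and for 34 below. Genes lower in red light Col-0 had a median ratio of -1.43 in red light Col-0 against -0.19 in dark pifQ, where 36 of 84 lay within 0.3 of dark Col-0, 12 above and 36 below. Over all genes tested, dark pifQ lay within 0.3 of dark Col-0 for 68.3% and red light Col-0 for 51.1%. In whole seedlings, more RNA of a gene per cell and more cells of a type that makes it cannot be told apart.

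**Figure D1:**
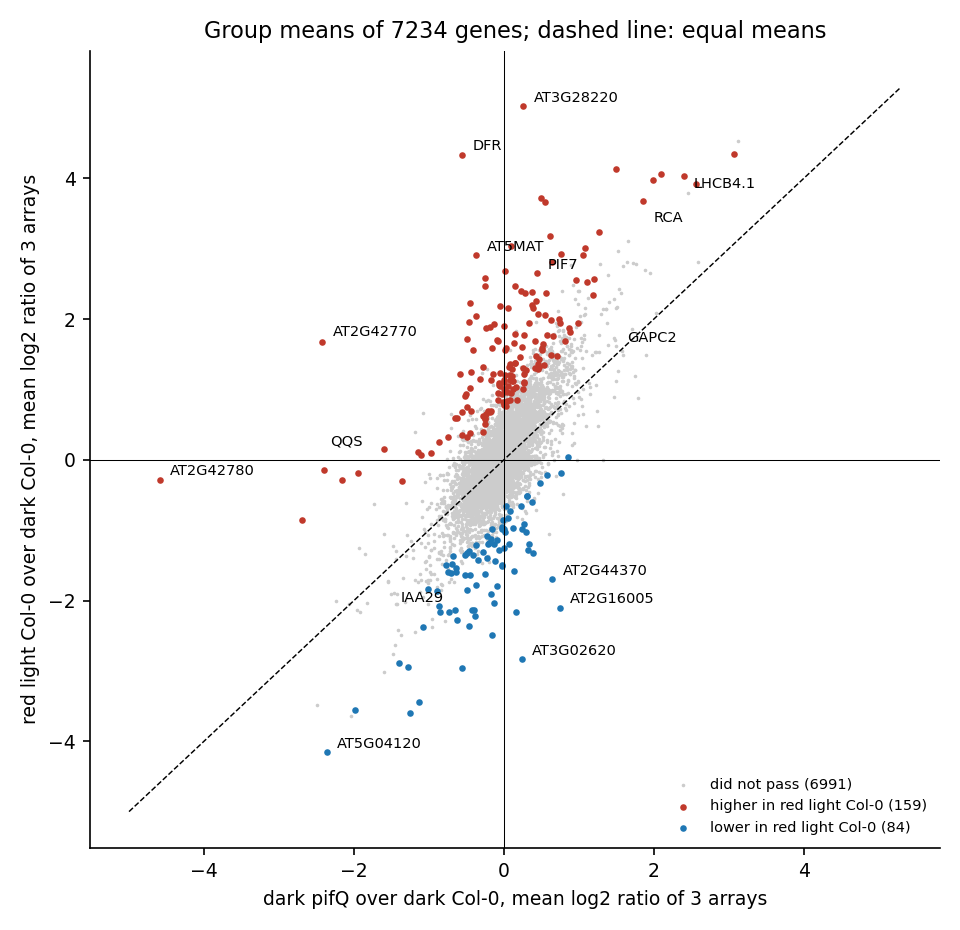
Mean log2 ratio over dark Col-0 of each gene, red light Col-0 on the vertical axis against dark pifQ on the horizontal axis, 3 arrays per group, with the 159 genes that passed as higher in red light Col-0 in red, the 84 lower in blue and the rest in grey. Many red and blue points lie close to the vertical line at 0 for dark pifQ, and a few lie in the quadrants where the groups stand on opposite sides of dark Col-0.

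Genes for the late steps of anthocyanin synthesis were among the farthest apart. DFR, the dihydroflavonol reductase that commits flavonoids to anthocyanins, stood at 4.56, 4.00 and 4.45 on the red light Col-0 arrays, against -0.29, -0.09 and -1.29 on the dark pifQ arrays. All 3 pifQ arrays thus lay below dark Col-0 and all 3 red light arrays far above it. DFR was 29.8-fold higher in red light Col-0 (log2 difference 4.89 ± 0.31 SE, adjusted p = 0.000156). AT5MAT, the malonyltransferase that acylates anthocyanins, stood at 2.82, 2.70 and 3.22 in red light Col-0, against 0.11, -0.20 and -1.0 in dark pifQ. It was 9.71-fold higher (3.28 ± 0.29 SE, adjusted p = 0.000919), with no overlap between the groups, which having passed largely implies. UGT78D2, which adds glucose to flavonols and anthocyanidins, stood at 2.44, 2.42 and 2.37 in red light Col-0, against 0.23, 0.61 and -0.16 in dark pifQ. It was 4.54-fold higher (2.18 ± 0.21 SE, adjusted p = 0.00114). These 3 are the members that passed, all higher, of 6 measured from the flavonoid and anthocyanin list, whose median difference was 1.24 against 0.04 over all genes tested. Members were matched by annotation name, so measured genes of the pathway without a name there are not counted in the list. The glucosyltransferase genes of the list that did not pass were UGT78D1, with means of 0.96 in red light Col-0 against 0.75 in dark pifQ, UGT78D3, with -0.07 in red light Col-0 against -0.04 in dark pifQ, and the sterol glucosyltransferase gene UGT80B1, with 0.13 in red light Col-0 against -0.16 in dark pifQ. UGT78D1 and UGT78D2 are close relatives, and whether their features tell them apart was not tested. The DFR, AT5MAT and UGT78D2 calls held without each array in turn and under quantile normalization.

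Of 9 measured genes in the antenna, photosystem and Calvin cycle lists, 3 passed as higher in red light Col-0, against 2.2% of all genes tested. These 3 were above dark Col-0 on every array of both groups. PSBW, a small subunit of photosystem II, stood at 3.69, 4.39 and 3.87 in red light Col-0, against 2.28, 2.68 and 1.03 in dark pifQ. RCA, the activase of Rubisco, stood at 3.72, 3.59 and 3.74 in red light Col-0, against 2.44, 2.25 and 0.90 in dark pifQ. LHCB4.1, one of the minor light-harvesting proteins around photosystem II, stood at 4.13, 4.31 and 3.68 in red light Col-0, against 2.76, 2.36 and 2.06 in dark pifQ. In all of these the groups did not overlap, which having passed largely implies, and pifQ replicate 3 was the lowest array. PSBW was 3.96-fold higher in red light Col-0 (1.99 ± 0.39 SE, adjusted p = 0.032), RCA 3.54-fold (1.82 ± 0.36 SE, adjusted p = 0.032) and LHCB4.1 3.12-fold (1.64 ± 0.23 SE, adjusted p = 0.00969).

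The antenna, photosystem and Calvin cycle lists had 3 measured members each, of which 1 each passed. All 9 differences were above 0, with a median of 1.24, while 4000 of all 7234 differences were above 0. The 6 that did not pass were PSBY (1.45), the ATP synthase subunit gene ATPC1 (1.24), LHCB4.3 (1.01), the phosphoribulokinase gene PRK (0.76), LHCB4.2 (0.71) and SBPASE (0.70), the bisphosphatase that regenerates the CO2 acceptor. The median ratio of the 9 genes over dark Col-0 was 2.77, 2.59 and 2.60 on the red light Col-0 arrays and 2.27, 2.06 and 0.65 on the dark pifQ arrays. Without pifQ replicate 3 their median difference was 0.79, that of LHCB4.2 0.13 and that of PRK 0.31. The PSBW and RCA calls ended without any 1 of the red light replicates and without pifQ replicate 1 or 2, at adjusted p = 0.0517 to 0.118, and had differences of 1.51 (adjusted p = 0.0159) and 1.34 (adjusted p = 0.00576) without pifQ replicate 3. The LHCB4.1 call ended without red light replicate 1 (adjusted p = 0.0527) or pifQ replicate 2 (0.0544). Quantile normalization ended all of these calls, put 1 antenna gene below 0 and gave medians of 0.22 for the antenna, 0.50 for the photosystem and 0.52 for the Calvin cycle genes, against 1.01, 1.45 and 0.76 here. Among genes that make chlorophyll and haem, 0 of 8 measured passed (3.36% over all genes tested), and 7 differences were above 0, with a median of 0.34. After quantile normalization 3 of the 8 were above 0 and the median was -0.09. Group means for CHLM, the methyltransferase of magnesium protoporphyrin, were 1.53 in red light Col-0 against 0.91 in dark pifQ. The 4 measured genes of the plastid gene expression and assembly list had differences of 0.34 to 0.93, and none passed. NdhL (0.59) is 1 of these 4, though by its name it belongs with the electron transport genes.

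Regulators of light responses and the clock were measured by few genes. PIF7, a PIF that the mutant retains, stood at 2.77, 2.73 and 2.47 in red light Col-0, against 0.52, 0.49 and 0.32 in dark pifQ. It was 4.65-fold higher in red light Col-0 (2.22 ± 0.16 SE, adjusted p = 0.000271), and the call held without each array. GI, the GIGANTEA protein of the clock and of photoperiodic flowering, stood at 0.71, 0.60 and 0.78 in red light Col-0, against -0.35, -0.68 and -0.31 in dark pifQ. The groups thus lay on opposite sides of dark Col-0 on every array. GI was 2.2-fold higher in red light Col-0 (1.14 ± 0.16 SE, adjusted p = 0.00992), and the call ended without red light replicate 1 (adjusted p = 0.0639). TINY (tny in the annotation), an AP2 transcription factor that limits cell expansion, stood at -0.12, 0.18 and 0.14 in red light Col-0, near dark Col-0. In dark pifQ it stood at -1.31, -1.28 and -0.74, so that the difference of 1.18 ± 0.20 SE (adjusted p = 0.0187) came with low pifQ arrays. The bHLH gene ATMYC1, which acts in epidermal patterning, was 1.7-fold higher in red light Col-0 (adjusted p = 0.0329), with means of 1.48 in red light Col-0 against 0.71 in dark pifQ. EMS1, a receptor kinase known from anther development, was 1.59-fold higher (adjusted p = 0.0395), with means of 0.39 in red light Col-0 against -0.28 in dark pifQ. The tny, ATMYC1 and EMS1 calls ended without any 1 array other than pifQ replicate 3, at adjusted p = 0.058 to 0.173, and those of ATMYC1 and EMS1 also under quantile normalization. The bHLH list leaves out PIF7 and ATMYC1, and none of its 7 genes or of the 12 bZIP genes passed. The median differences were 0.16 and 0.05. Over all genes tested 3.36% passed, and the median difference was 0.04.

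**Figure D2:**
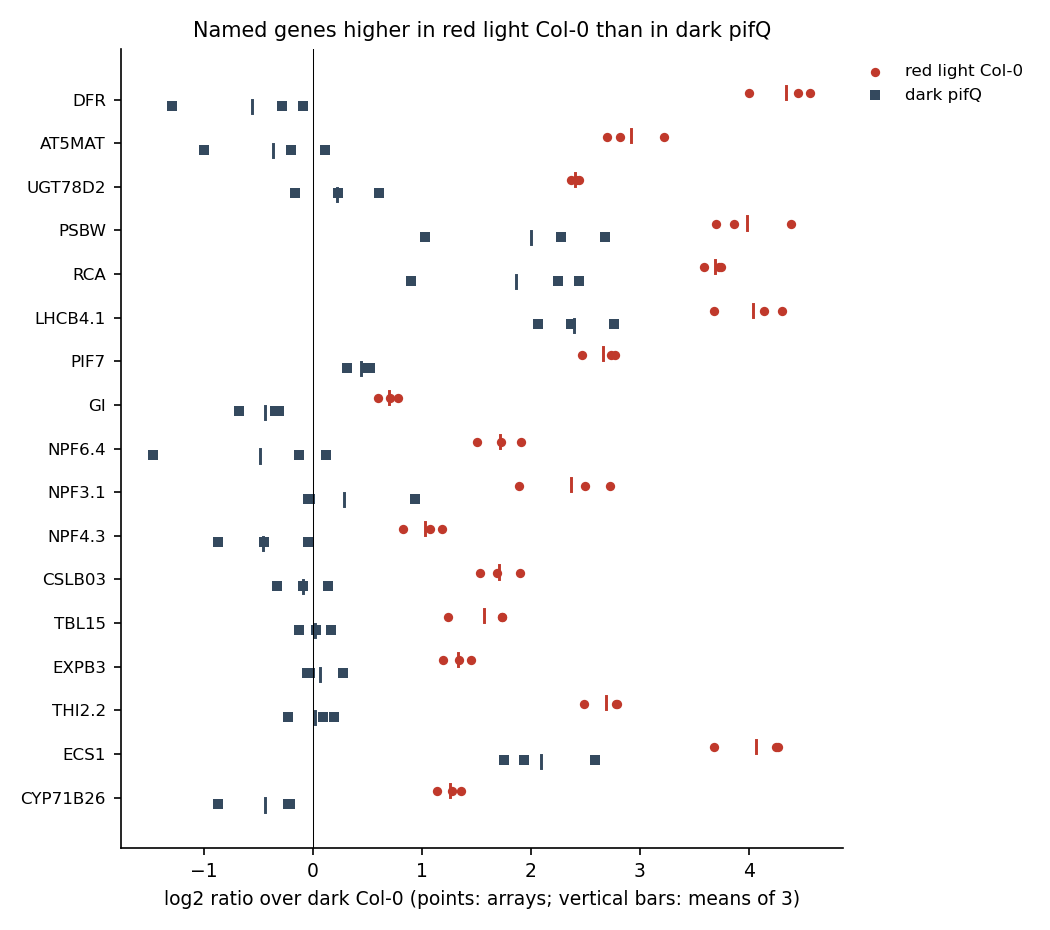
Log2 ratios over dark Col-0 on each array (points) and group means (vertical bars) for 17 named genes that passed as higher in red light Col-0, with red light Col-0 above dark pifQ in each row. The 3 red light arrays lie right of all 3 pifQ arrays in every row, which follows largely from showing only genes that passed. The pifQ arrays lie around 0 for most genes but above 1 or close to it for LHCB4.1, ECS1, PSBW and RCA.

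Cell wall genes were called in both directions. EXPB3, a beta-expansin, stood at 1.34, 1.45 and 1.19 in red light Col-0, against 0.28, -0.05 and -0.03 in dark pifQ. It was 2.39-fold higher in red light Col-0 (1.26 ± 0.16 SE, adjusted p = 0.006), with pifQ arrays close to dark Col-0. CSLB03, a cellulose synthase-like protein, stood at 1.90, 1.53 and 1.69 in red light Col-0, against -0.09, 0.14 and -0.33 in dark pifQ. It was 3.49-fold higher (1.80 ± 0.18 SE, adjusted p = 0.0016). TBL15, of a family that acetylates wall polysaccharides, stood at 1.73, 1.73 and 1.24 in red light Col-0, against 0.02, -0.13 and 0.16 in dark pifQ, 2.92-fold higher (1.55 ± 0.19 SE, adjusted p = 0.00448). TBL45 was 1.82-fold higher (adjusted p = 0.0345), and these were the 2 of 14 measured TBL genes that passed. The TBL family was added after names were seen. Across all genes tested the share that passed was 3.36%. The EXPB3, CSLB03 and TBL15 calls held without each array, and that of TBL45 ended without any 1 array other than pifQ replicate 3 (adjusted p = 0.0813 to 0.118) and under quantile normalization.

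Wall genes that were lower in red light Col-0 include 2 for pectin methylesterases, which change the stiffness of pectin. ATPMEPCRD stood at -3.26, -2.77 and -2.79 in red light Col-0, against -0.93, -1.73 and -1.16 in dark pifQ. PME61 stood at -2.50, -2.11 and -2.20 in red light Col-0, against -0.67, -0.22 and -0.97 in dark pifQ. Both were thus below dark Col-0 on every array, and further below it in red light. ATPMEPCRD was 3.18-fold lower in red light Col-0 (-1.67 ± 0.24 SE, adjusted p = 0.00992) and PME61 3.14-fold (-1.65 ± 0.22 SE, adjusted p = 0.00671). Both held without each array and ended under quantile normalization. By gene order, ATPMEPCRD lies 4 genes after PIF4 and PME61 5 genes before PIF5, so both sit beside loci mutated in pifQ. XTH19, which cuts and rejoins xyloglucan, stood at -2.03, -2.59 and -1.87 in red light Col-0, against -1.17, -0.68 and -0.32 in dark pifQ, 2.71-fold lower (-1.44 ± 0.26 SE, adjusted p = 0.0252). Its call ended without red light replicate 1 or 2 or pifQ replicate 2 (adjusted p = 0.0741 to 0.102), and under quantile normalization. All 6 measured XTH genes had differences below 0, -1.44 to -0.06, and so did 6 of 8 GH9 endoglucanase and 5 of 8 expansin genes. Over the 22 genes of the wall loosening list, 17 differences were below 0, and the median was -0.41, while 3234 of all 7234 differences were below 0. In this list 1 gene passed as higher and 1 as lower, against 2.2% and 1.16% of all genes tested. Quantile normalization gave medians of -0.19 for this list, -0.16 for the GH9 genes (-0.48 here) and 0.01 for the expansins (-0.28 here), with 4 of 8 expansin genes below 0, and kept all 6 XTH genes below 0.

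Transporter genes that passed included 3 of 9 measured NPF genes, a family that carries nitrate, peptides and plant hormones. The NPF family was added after names were seen. Over all genes tested, 3.36% passed in either direction and 2.2% as higher. NPF6.4 (AT3G21670), a nitrate transporter, stood at 1.73, 1.91 and 1.5 in red light Col-0, against 0.12, -0.13 and -1.47 in dark pifQ, with pifQ replicate 3 the lowest. NPF3.1 (AT1G68570), which carries nitrite and gibberellin, stood at 2.49, 2.72 and 1.89 in red light Col-0, against -0.03, -0.05 and 0.93 in dark pifQ. NPF4.3 (AT1G59740) stood at 1.08, 0.82 and 1.19 in red light Col-0, against -0.87, -0.04 and -0.45 in dark pifQ. All 3 were above dark Col-0 on every red light array, and the pifQ arrays were near or below it except for NPF3.1 on pifQ replicate 3. NPF6.4 was 4.6-fold higher in red light Col-0 (2.2 ± 0.37 SE, adjusted p = 0.0189), NPF3.1 4.23-fold (2.08 ± 0.31 SE, adjusted p = 0.0114) and NPF4.3 2.8-fold (1.48 ± 0.23 SE, adjusted p = 0.0121). All of these calls ended without red light replicate 1, those of NPF6.4 and NPF3.1 also without pifQ replicate 2, that of NPF6.4 without red light replicate 2 and that of NPF3.1 without pifQ replicate 1, at adjusted p = 0.0562 to 0.0765. Quantile normalization ended all of them too. The other 6 NPF genes had differences of -0.55 to 0.40. SWEET16, a vacuolar sugar carrier, stood at -1.70, -1.02 and -1.82 in red light Col-0, against 0.36, 0.14 and -0.56 in dark pifQ. It was the 1 of 10 measured SWEET genes that passed, 2.81-fold lower in red light Col-0 (adjusted p = 0.0307), and its call ended without red light replicate 1 or 3 or pifQ replicate 1 or 2 (adjusted p = 0.0804 to 0.124) and under quantile normalization.

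Genes of specialised metabolism and defence were split between the directions. THI2.2, a thionin of the antimicrobial peptides, stood at 2.78, 2.48 and 2.79 in red light Col-0, against 0.09, -0.23 and 0.19 in dark pifQ. It was 6.35-fold higher in red light Col-0 (2.67 ± 0.18 SE, adjusted p = 0.000181), and its pifQ arrays lay on both sides of dark Col-0. ECS1, a cell wall protein, stood at 3.68, 4.26 and 4.25 in red light Col-0, against 2.59, 1.94 and 1.75 in dark pifQ, and was 3.92-fold higher (1.97 ± 0.26 SE, adjusted p = 0.006). CYP71B26, a cytochrome P450, stood at 1.27, 1.14 and 1.35 in red light Col-0, against -0.87, -0.21 and -0.23 in dark pifQ. It was 3.23-fold higher (1.69 ± 0.21 SE, adjusted p = 0.00463) and the 1 of 10 measured CYP71B genes that passed, against 3.36% of all genes tested. The calls of these genes held without each array, and that of ECS1 ended under quantile normalization (0.64, adjusted p = 0.388) and with a prior that follows a trend (adjusted p = 0.136).

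On the lower side, F6'H1 (AT3G13610), the hydroxylase that opens the path to the coumarin scopoletin, stood at -1.90, -1.74 and -1.74 in red light Col-0, against 0.37, -0.67 and 0.01 in dark pifQ. It was 3.24-fold lower in red light Col-0 (-1.70 ± 0.25 SE, adjusted p = 0.0112), and the call ended without red light replicate 1 (adjusted p = 0.0594). PXMT1, a methyltransferase of the SABATH family, was 3.71-fold lower (adjusted p = 0.0458), with means of -2.36 in red light Col-0 against -0.47 in dark pifQ. UGT72E3, which glucosylates lignin precursors, was 1.97-fold lower (adjusted p = 0.0222), with means of -0.98 in red light Col-0 against 0.00 in dark pifQ. The peroxidase gene PRX72 (AT5G66390) was 1.94-fold lower (adjusted p = 0.0177), with -1.60 in red light Col-0 against -0.64 in dark pifQ, and the jacalin lectin gene JAL31 2.5-fold lower (adjusted p = 0.0296), with -1.02 in red light Col-0 against 0.30 in dark pifQ. All 3 measured genes with peroxidase symbols, like other symbol families here added after names were seen, had differences of -1.01 to -0.91, and 1 passed. Of 3 measured genes with peroxidase product names, 1 lay above 0 (0.08), and none passed. Measured peroxidase genes without such a symbol or name in the annotation are not counted here, so these counts do not describe peroxidases as a whole. The PXMT1, UGT72E3, PRX72 and JAL31 calls ended without red light replicate 1 or 2 or pifQ replicate 2, those of PXMT1 and JAL31 also without red light replicate 3 and all except that of JAL31 without pifQ replicate 1, at adjusted p = 0.0569 to 0.166. Between neighbouring beta-glucosidase genes the directions differed. BGLU28, which breaks down glucosinolates, stood at 1.92, 1.74 and 1.67 in red light Col-0, against 0.53, 1.15 and 0.04 in dark pifQ, and was 2.3-fold higher (adjusted p = 0.0467). BGLU15 stood at -0.02, -0.18 and -0.36 in red light Col-0, against 0.55, 0.62 and 1.11 in dark pifQ, and was 1.93-fold lower (adjusted p = 0.0378). Their calls ended without pifQ replicate 1 or any 1 of the red light replicates, that of BGLU15 also without pifQ replicate 2, at adjusted p = 0.0766 to 0.173. Of 11 measured beta-glucosidase genes these were the 2 that passed, where 3.36% of all genes tested did. Quantile normalization ended the F6'H1, PXMT1, PRX72, JAL31 and BGLU28 calls.

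**Figure D3:**
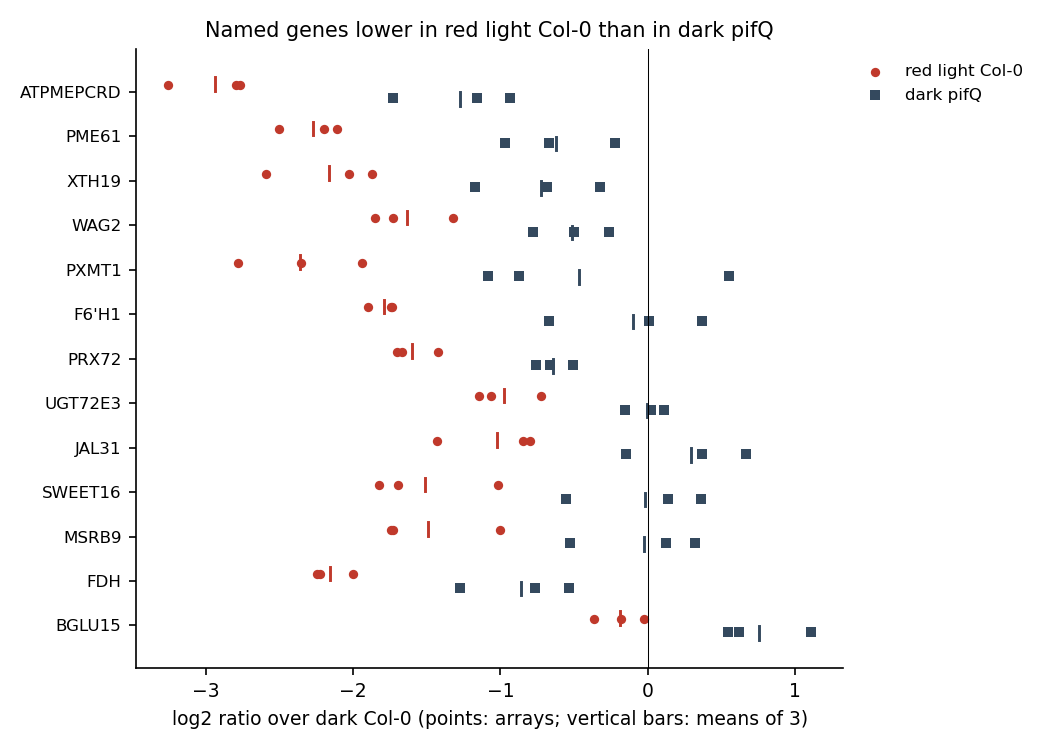
Log2 ratios over dark Col-0 on each array (points) and group means (vertical bars) for 13 named genes that passed as lower in red light Col-0, with red light Col-0 above dark pifQ in each row. Red light arrays lie left of all pifQ arrays in every row, which follows largely from showing only genes that passed. Dark pifQ means are farthest below 0 for ATPMEPCRD and FDH, and also lie below 0 for XTH19, PME61, PRX72, WAG2 and PXMT1.

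Other metabolic and hormone genes gave single calls. Methionine sulfoxide reductases of the MSRB type, a family added after names were seen, repair oxidised methionine. Of 5 measured 2 passed, against 3.36% of all genes tested. MSRB6 stood at 4.25, 4.64 and 4.13 in red light Col-0, against 3.05, 3.56 and 2.60 in dark pifQ, a difference of 1.27 ± 0.26 SE (adjusted p = 0.0348) that turned to -0.44 under quantile normalization (adjusted p = 0.446). MSRB9 stood at -1.73, -1.0 and -1.75 in red light Col-0, against 0.13, 0.32 and -0.53 in dark pifQ, and was 2.76-fold lower (adjusted p = 0.0283). Mitochondrial formate dehydrogenase, FDH, was 2.46-fold lower in red light Col-0 (-1.30 ± 0.21 SE, adjusted p = 0.0164), with means of -2.16 in red light Col-0 against -0.86 in dark pifQ. GH3.9, of the enzymes that join auxin to amino acids, was 2.43-fold higher (adjusted p = 0.02), with means of 1.36 in red light Col-0 against 0.08 in dark pifQ, and was the 1 of 4 measured GH3 genes that passed. WAG2, a kinase of auxin carriers, was 2.18-fold lower (adjusted p = 0.0244), with -1.64 in red light Col-0 against -0.51 in dark pifQ. The MSRB6, MSRB9, FDH, GH3.9 and WAG2 calls each ended without 4 of the 6 arrays, red light replicate 1 and pifQ replicate 1 always among them, at adjusted p = 0.0517 to 0.122, and those of MSRB9, FDH, GH3.9 and WAG2 under quantile normalization as well. No gene of the gibberellin (4 measured), ethylene (2), cytokinin (2) or abscisic acid, cold and dehydration (8) lists passed. With 3.36% of all genes tested passing, the lack of a call in lists this small says little about them. The auxin-related homeodomain gene HAT2 had means of -1.29 in red light Col-0 against -0.27 in dark pifQ, and missed the threshold (adjusted p = 0.0578).

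**Figure D4:**
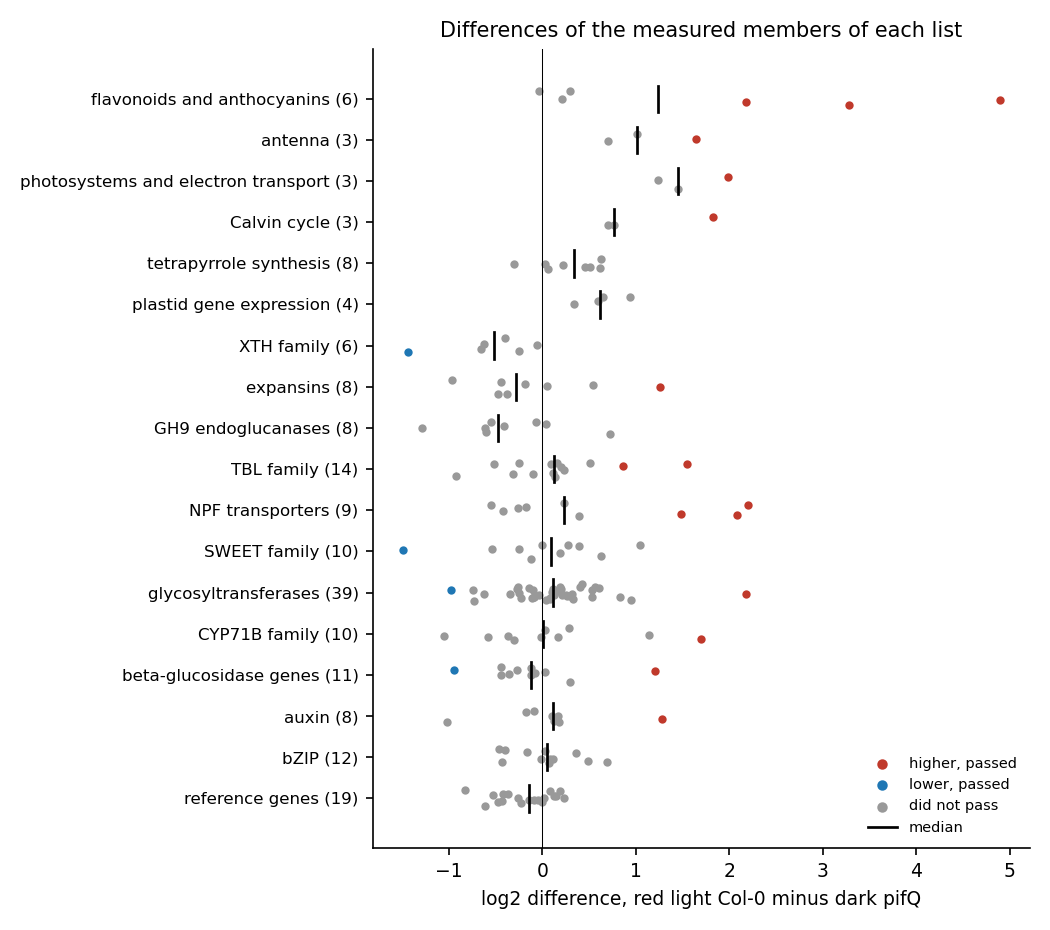
Log2 difference, red light Col-0 minus dark pifQ, of each measured member of 18 gene lists, with the number measured in brackets, medians as black bars and members that passed in red (higher) or blue (lower). Of the flavonoid genes 5 of 6 lie right of 0, as do the 4 genes of the plastid gene expression list, NdhL among them. The photosynthesis genes lie there too (1 antenna gene falls below 0 after quantile normalization). The 6 XTH genes lie left of 0, and the other families lie on both sides with 0 to 3 calls each.

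Markers of other tissues were few, and none passed. With 3.36% of all genes tested passing, the lack of a call among so few genes says little about them. The guard cell gene FAMA (FMA in the annotation) had means of 0.86 in red light Col-0 against 0.19 in dark pifQ (adjusted p = 0.166), and the leaf primordium gene YAB5 had 1.69 in red light Col-0 against 0.82 in dark pifQ (adjusted p = 0.206). The root list had 2 measured genes with differences of -0.44 and 0.08. The oil body gene OLEO3, a marker of seed reserves, had -3.02 in red light Col-0 against -1.59 in dark pifQ (adjusted p = 0.0612). The part of tissue makeup in the results above was not tested. Of 19 genes used as references, such as tubulins and ubiquitin enzymes, none passed (3.36% over all genes tested). Their median difference was -0.14 (-0.22 after quantile normalization).

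Many of the genes far apart have no name in the annotation. AT3G28220 stood at 5.03, 5.29 and 4.75 in red light Col-0, against -0.14, 0.60 and 0.33 in dark pifQ, 27.1-fold higher (4.76 ± 0.23 SE, adjusted p = 5.73e-05). Its near neighbour AT3G28270 was 9.29-fold higher, with means of 3.72 in red light Col-0 against 0.50 in dark pifQ. AT1G60590 stood at 3.72, 3.56 and 3.73 in red light Col-0, against 0.70, 0.40 and 0.57 in dark pifQ, 8.67-fold higher (adjusted p = 5.73e-05). In these genes the 3 arrays of a group lay far closer to each other than to the other group, which follows largely from their choice by size and by having passed. On the lower side, AT3G02620 stood at -3.04, -2.48 and -2.97 in red light Col-0, against 0.21, 0.42 and 0.08 in dark pifQ, 8.39-fold lower (-3.07 ± 0.20 SE, adjusted p = 0.000156). The adjacent AT3G02610 was also lower, with means of -1.28 in red light Col-0 against -0.07 in dark pifQ (adjusted p = 0.00463). AT5G39160 stood at -3.27, -3.23 and -2.39 in red light Col-0, against -0.64, -0.46 and -0.58 in dark pifQ, 5.28-fold lower (adjusted p = 0.0016). Its neighbours AT5G39150 and AT5G39180 were 5.06-fold and 5-fold lower, with all 3 genes below dark Col-0 in both groups. The AT5G39150 call ended without pifQ replicate 1 or 2 and that of AT5G39180 without pifQ replicate 2 (adjusted p = 0.0501 to 0.0549), the first also under quantile normalization. Counting called genes no more than 5 genes apart and of 1 direction, 26 genes fell into 12 runs, 9 higher and 3 lower. Whether the features of adjacent genes tell related copies apart was not tested.

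Of the 243 genes that passed, 109 had a dark pifQ mean within 0.3 of dark Col-0, against 68.3% of all genes tested. Besides AT3G28220, THI2.2, UGT78D2 and NPF3.1, the highest red light means among them were those of AT5G42760, AT4G14090, AT1G03940 and AT1G32520. AT5G42760 stood at 3.12, 3.15 and 2.85 in red light Col-0, against 0.05, 0.08 and 0.13 in dark pifQ, 7.74-fold higher (adjusted p = 5.76e-05). AT4G14090 had means of 2.59 ± 0.20 in red light Col-0 against -0.25 ± 0.58 in dark pifQ, and AT1G03940 had 2.48 ± 0.30 in red light Col-0 against -0.25 ± 0.55 in dark pifQ (SD, n = 3 each). The lowest red light means were those of AT3G02620, AT1G45015, AT4G12545 and AT4G37700. AT1G45015 stood at -2.83, -1.91 and -2.72 in red light Col-0, against 0.06, -0.54 and 0.01 in dark pifQ, 5.02-fold lower (adjusted p = 0.0041). The AT4G12545 call (4.99-fold lower) ended without red light replicate 1 or 3 or pifQ replicate 1 or 2, and the AT4G37700 call (3.73-fold lower) without pifQ replicate 1 or 2, at adjusted p = 0.0501 to 0.127, and that of AT4G12545 also under quantile normalization. A pifQ mean within 0.3 of 0 does not show that PIF loss left a gene unchanged, since the median SE of the difference among genes that passed was 0.20.

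Red light Col-0 and dark pifQ stood on opposite sides of dark Col-0, both by at least 0.5, in 10 genes that passed. In 8 of them red light Col-0 was above and dark pifQ below, led by DFR and AT2G42770. DFR met the 0.5 limit (pifQ mean -0.56) through pifQ replicate 3, with pifQ arrays at -0.29, -0.09 and -1.29. AT2G42770 stood at 1.84, 1.89 and 1.29 in red light Col-0, against -1.52, -1.65 and -4.1 in dark pifQ, 17.1-fold higher (4.1 ± 0.60 SE, adjusted p = 0.0111). The other 6 were AT3G16120, AT2G47890, AT2G25530, AT3G62460, AT2G25625 and AT2G25450, with differences of 1.22 to 1.81. The reverse order held for AT2G16005 and AT2G44370. AT2G44370 stood at -1.97, -1.81 and -1.29 in red light Col-0, against 0.85, 0.62 and 0.47 in dark pifQ, 5.05-fold lower (-2.34 ± 0.21 SE, adjusted p = 0.00103). AT2G16005 stood at -1.51, -1.69 and -3.10 in red light Col-0, against 1.38, 1.09 and -0.24 in dark pifQ, 7.2-fold lower (adjusted p = 0.0222), and its call ended without red light replicate 2 or pifQ replicate 1 or 2 (adjusted p = 0.0503 to 0.107) or under quantile normalization. Of the higher genes named by rule, the AT3G16120, AT2G47890 and AT3G62460 calls ended without pifQ replicate 1 and, but for AT3G62460, without pifQ replicate 2 or red light replicate 1, that of AT3G16120 also without red light replicate 2, at adjusted p = 0.0519 to 0.0862.

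The opposite arrangement, with a red light mean within 0.3 of dark Col-0 and dark pifQ farther away, was found in 12 genes that passed. Over all genes tested, 51.1% had a red light mean that close. In 9 of the 12 genes dark pifQ was low. AT2G42780 stood at -0.11, -0.40 and -0.33 in red light Col-0, against -4.57, -3.65 and -5.55 in dark pifQ, 19.8-fold higher in red light Col-0 (4.31 ± 0.40 SE, adjusted p = 0.00114). AT2G42270 stood at -0.14, -0.36 and 0.08 in red light Col-0, against -2.75, -2.06 and -2.39 in dark pifQ, a difference of 2.25 ± 0.21 SE. QQS, an orphan gene whose product affects starch content, stood at 0.11, 0.49 and -0.16 in red light Col-0, against -1.40, -1.47 and -1.91 in dark pifQ. Its difference of 1.74 ± 0.22 SE (adjusted p = 0.00513) held without each array. The others were AT2G42760, AT2G40920, AT2G05910, tny, AT3G22620 and AT2G44200. In 3 genes dark pifQ was high: AT1G55210, BGLU15 and AT2G44240, with differences of -0.95 to -0.79. The AT2G40920 call ended without red light replicate 1 (adjusted p = 0.0562). Those of AT2G05910, AT1G55210 and AT2G44240 ended without red light replicate 1 or 2 or pifQ replicate 1 or 2, those of AT1G55210 and AT2G44240 also without red light replicate 3, and that of AT1G55210 without pifQ replicate 3, at adjusted p = 0.0522 to 0.198. Quantile normalization ended the AT2G05910 and AT2G44240 calls.

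Some genes lay far from dark Col-0 in both groups. Both means were at least 1.5 above it in 24 genes, 6 of which passed, and at least 1.5 below it in 13, 2 of which passed. Over all genes tested 3.36% passed. The genes described next were chosen from these for the smallest differences, so the closeness of their groups follows from that choice. GAPC2, a cytosolic dehydrogenase of glycolysis, stood at 1.79, 1.47 and 1.60 in red light Col-0, against 1.15, 1.17 and 2.19 in dark pifQ, and the groups overlapped. Its difference was 0.12, with a 95% interval of -0.51 to 0.75. IAA29, an auxin-responsive repressor that PIFs are known to activate, stood at -1.82, -1.68 and -1.68 in red light Col-0, against -0.90, -1.84 and -1.91 in dark pifQ (-0.18, interval -0.78 to 0.42). EXPA9, an expansin, had means of -1.73 in red light Col-0 against -1.54 in dark pifQ (-0.19, interval -0.75 to 0.37). AT3G54830, at -2.04 in red light Col-0 against -2.07 in dark pifQ, had the narrowest interval of the 8 genes named as alike, -0.33 to 0.37. Each of these intervals leaves room for a difference in either direction.

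Genes that passed were spread unevenly over the 5 chromosomes. On chromosome 2, which carries PIF1 and PIF4, 42 of 1080 genes were higher in red light Col-0 (3.89%), against 1.76% on chromosome 1, 1.81% on chromosome 3, 2.61% on chromosome 4 and 1.7% on chromosome 5. For lower genes the shares ran from 0.981% to 1.32%, with 1.2% on chromosome 2. Within 500 genes of PIF4, 16 of 285 measured genes were higher (5.61%) and 6 lower (2.11%). Further before it, 25 of 781 were higher (3.2%) and 7 lower (0.896%), so both shares were larger near PIF4. Within 60 genes of PIF4, 3 of 34 measured genes were higher and 1 lower, ATPMEPCRD. AT2G42760, AT2G42770 and AT2G42780, the 3 measured genes 28, 27 and 26 genes before PIF4, were all higher in red light Col-0, with pifQ means of -2.16, -2.42 and -4.59. Within 60 genes of PIF1, 2 of 28 measured genes were higher, the chloroplast splicing factor gene CAF1 (means 1.31 in red light Col-0 against 0.46 in dark pifQ) and AT2G20250. The CAF1 call ended without any 1 array other than pifQ replicate 3 (adjusted p = 0.0556 to 0.196), and under quantile normalization. Within 60 genes of PIF3 none of 36 passed, and of PIF5 1 of 34, PME61. Of the 9 genes low in dark pifQ and near dark Col-0 in red light, 6 lie on chromosome 2, as do 7 of the 10 with the groups on opposite sides, whereas chromosome 2 holds 14.9% of all genes tested. Of the 109 genes with dark pifQ near dark Col-0, 17 lie there (15.6%). The part of sequence or genotype differences carried along with the mutated loci was not tested.

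**Figure D5:**
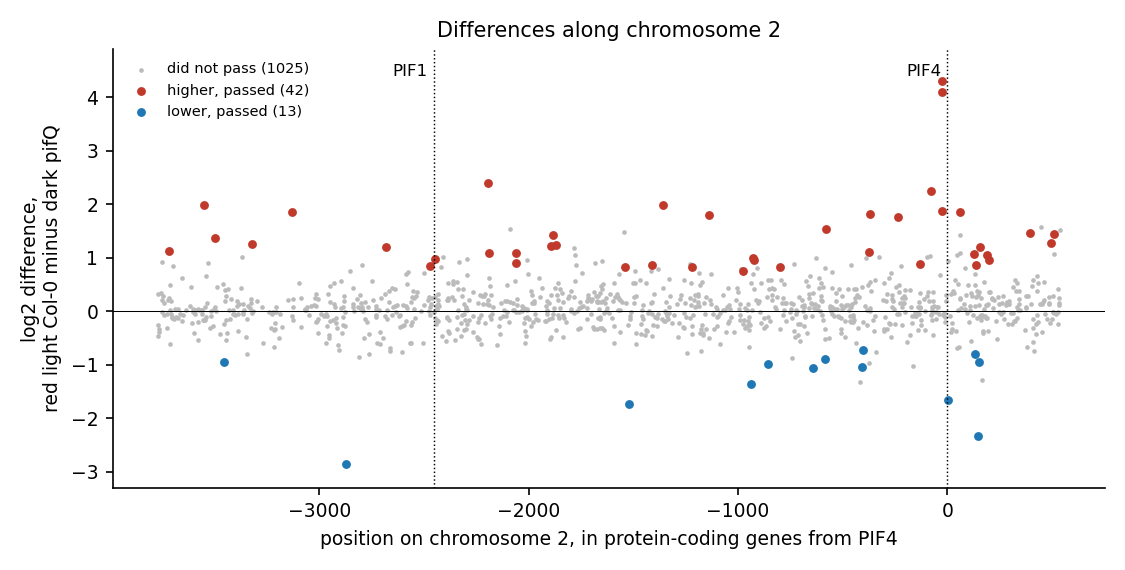
Log2 difference, red light Col-0 minus dark pifQ, of the 1080 measured genes of chromosome 2 in gene order, counted in protein-coding genes from PIF4, with PIF1 and PIF4 as dotted lines and genes that passed in red (42 higher) or blue (13 lower). The highest points, AT2G42780 and AT2G42770, lie just before PIF4.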

How the data were processed

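Transcripts were measured on 6 two-colour arrays, 3 of red light Col-0 and 3 of dark pifQ, each against dark Col-0. The deposited values are log ratios, 1 per feature and array, read here as log2 ratios of sample over dark Col-0. The logarithm's base is not given in these sources and was taken as 2. Per the submitters' processing notes, limma was used (no version named). The background correction and normalization that the authors used are not stated in the labels or headers. There was no dye swap, per the labels, so a dye effect of a feature is shared by both groups and was not measured apart. The 6 column medians lay within 0.01 of 0. The table holds no intensities, so dim and saturated spots went unmarked, and precision is limited by the number of arrays.

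The platform annotation gives 1 gene for 7440 of 45220 features, several for 0 and none here for 37780. The 7440 stand for 7234 genes, 139 with more than 1 feature, whose values were averaged per array. Names and gene order came from the TAIR10.1 annotation, in which 947 of these genes have a symbol. Its coordinates are not printed, since no build is named for the features, and no sequence is printed.

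limma 3.58.1 under R 4.3.3 (lmFit, then eBayes) fitted 1 coefficient per group over 6 arrays. Tests were two-sided at 0.05 after Benjamini-Hochberg adjustment across the 7234 genes. The p-values given are from this fit, the SE is the moderated one, and ratios over dark Col-0 are given without a test because that channel is shared. The fit was tested on simulated data. Tables were made with pandas 2.3.3 and plots with matplotlib 3.10.9.

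Gene lists (63, of which 48 had a measured member) were drawn by symbol or name, and 30 pattern matches that name another protein were left out. Members and lists were chosen with earlier results of these data known. The NPF, TBL, beta-glucosidase, SWEET, MSRB, CYP71B, GH9, XTH, expansin, GH3 and peroxidase symbol families were added to the lists after names were seen. Their counts of calls are thus counts in families chosen with these data at hand. Named genes are the 12 largest differences per direction among genes that passed with no overlap between groups. To these come up to 4 passing members per list (or the member with the smallest p), up to 8 per direction with dark pifQ within 0.3 of 0 and up to 6 per direction on opposite sides of dark Col-0 by 0.5. The rule further takes up to 6 per direction with red light Col-0 within 0.3 of 0. It also takes 4 per direction alike, those with the smallest differences among genes at 1.5 or more in both groups. Every other gene that passed and has a name in the annotation was added after values were seen, F6'H1, PRX72 and NPF genes by synonym. These genes are named because they passed. AT2G25625, AT2G25450, AT3G22620, AT2G44200, AT3G02610 and AT2G20250, the list members without a call and the windows along the chromosomes were also added after their values were seen. Alternatives were centring, scaling and quantile normalization, unaveraged features, genes with 1 feature, a filter on genes near 0, priors, weights, a replicate block, the log base and each array left out.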

Additional observations from a re-analysis of the deposited data

How the results depend on the processing

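The counts of genes called depended on the processing, while the directions of the 76 named calls held under each alternative run except that of MSRB6, at -0.44 under quantile normalization. Differences near 0 that had not passed changed sign more often, among them IAA29 (0.14 without pifQ replicate 1), EXPA9 (0.03 without pifQ replicate 3), GAPC2 (-0.05 without pifQ replicate 1) and UGT78D1 (-0.03 without pifQ replicate 1). Quantile normalization gave 62 higher and 20 lower genes (at least 2-fold: 0.788% and 0.235% of genes tested, against 1.58% and 0.691% in the report), and 79 of the 243 genes passed under both. Scaling arrays to the same spread gave 266 and 127 (2.38% at least 2-fold higher), and array weights 393 and 246 (2.38% and 1.34% at least 2-fold), with 238 and 241 of the 243 genes passing as well. Adjusting over all features, an alternative added after seeing the data, gave 92 higher and 37 lower. Read as natural logarithms, the values gave 2.17% of genes at least 2-fold higher and 1.13% lower. Leaving out 1 array gave 45 to 364 higher and 16 to 199 lower genes, and 0.622% to 2.81% at least 2-fold higher and 0.221% to 1.4% lower, the most without pifQ replicate 3 and the fewest without red light replicate 1. With fewer arrays the fit has fewer degrees of freedom, and the cause of the unequal counts was not tested. Same-numbered arrays did not deviate together (r = -0.18, -0.15 and -0.17 for numbers 1, 2 and 3), so the numbers do not pair the samples, and with a replicate block 92 genes were higher and 28 lower, all of them at least 2-fold (0.387% of genes for the lower ones). Of 76 named calls 32 held without each array and 28 under every setting run. The cause of the lost calls was not tested. The arrays hold no intensities here, so background correction and a filter on dim spots were not run, and depth in terms of signal over background is unknown.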

Other observations

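The 37780 features without a gene name were fitted together with the named ones and adjusted over all 45220. Among them 303 were higher and 93 lower in red light Col-0 than in dark pifQ (1.048%), with log2 differences of -3.66 to 5.56. Of the 7440 named features 92 were higher and 37 lower in the same fit (1.734%). The unnamed features are not described further here, since no table at hand pairs them with genes.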
